A study of Mus musculus with 39 samples.

Results

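10 mouse genes of serine synthesis and amino acid supply were followed in 2 brain macrophage populations through embryonic life. They are the serine synthesis enzymes Phgdh, Psat1 and Psph, the mitochondrial folate enzymes Shmt2 and Mthfd2, asparagine synthetase Asns, the amino acid transporter genes Slc43a1, Slc7a5 and Slc3a2, and the transcription factor gene Atf4. The 10 members are 10 of the 53379 genes in the count table, matched by their Ensembl identifiers. Phgdh, Asns and Slc43a1 were selected on their CPM (counts scaled by the library total), which had been seen to fall with stage in these same libraries, and the other 7 were added as their pathway relatives. The stage values of those 3 genes are therefore given as a description, with no test. All 10 members passed the filter on low counts.

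The libraries came from border-associated macrophages (BAM, the macrophages of the meninges, choroid plexus and perivascular spaces) and microglia (the macrophages of the brain tissue itself). Both were sorted by FACS from brains of time-mated C57Bl/6 embryos, with no treatment or genetic change in the labels, and total RNA was sequenced by a SMART-seq2 protocol. BAM gave 4, 3, 3, 3, 3 and 4 libraries at E10.5, E11.5, E12.5, E14.5, E16.5 and E18.5 (20 in all), and microglia 4, 3, 3, 2, 3 and 4 at the same stages (19 in all). The labels give neither the sort gates nor whether the libraries of a group came from separate embryos, litters or pools, so p-values measure only the spread between these libraries.

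Library totals ran from 10692763 to 47182711 counts, with a median of 22395273. The library numbers in the labels fall into 2 separate runs, beginning R8 and R10. The R10 run holds both populations at the first 2 stages and 1 library per population at E18.5, and the R8 run holds the rest. What the runs stand for is not given, and a BAM against microglia comparison within a stage has the same run composition on both sides. The summed level of 8 BAM marker genes was 12900 to 40200 CPM in BAM and 2190 to 10200 CPM in microglia, without overlap. The sums of 8 microglia markers did not overlap at any stage, but were close at E10.5 (2880 to 3270 CPM in BAM, 3450 to 4570 CPM in microglia). They were 4120 to 4320 CPM in BAM and 8730 to 9410 CPM in microglia at E11.5, and 3530 to 5550 CPM in BAM and 8600 to 25800 CPM in microglia from E12.5 on. The single microglia markers did not all go with the sum (edgeR, adjusted p under 0.05). At E10.5, 5 of the 8 were lower in BAM, 1 was higher and 2 were not called. At E11.5, 7 were lower and 1 was not called, and at each later stage 8 were lower. CPM is a share of a bulk library, so fewer cells of a type and less RNA per cell cannot be told apart.

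As background, cells make serine from a glycolytic intermediate in a short chain of reactions. Phgdh oxidises the intermediate, Psat1 transfers an amino group to it from glutamate, and Psph removes the phosphate. Shmt2 then splits serine in mitochondria into glycine and a folate-bound carbon unit, which Mthfd2 oxidises further on the way to formate and purines. Asns makes asparagine from aspartate and glutamine. Slc7a5 and its heavy chain Slc3a2 form a heterodimeric exchanger of large neutral amino acids, and Slc43a1 carries such amino acids by facilitated diffusion. Atf4 is translated more when eIF2 is phosphorylated, as in amino acid shortage, and is known in mammalian cells to bind C/EBP-ATF elements of Asns, Psat1 and other genes of this group. Atf4 activity is controlled largely at translation, so its RNA level alone does not show it.

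The promoters of 9 members were looked up in the RefSeq windows (250 bases before to 50 after the annotated start; Slc7a5 was not looked up elsewhere) for 2 short motifs on both strands, the core TGATGNAA of the amino acid response element and the E-box CACGTG. The first was present in 3.91% of 32544 mouse windows and in 1 of the 9 members, Asns. The second was present in 7.17% of the windows and in 1 of the 9 members, Slc43a1. A match is a run of letters and not a measured binding site, and a missing match says only that these letters are not in this window. Stretches of 4 members are shown because their levels carry the main results, with the match in capitals. All are in GRCm38.p6, written 5′ to 3′ on the strand of the gene.
Asns: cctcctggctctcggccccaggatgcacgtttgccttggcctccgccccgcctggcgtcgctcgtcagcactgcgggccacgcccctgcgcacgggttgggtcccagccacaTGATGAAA
Phgdh: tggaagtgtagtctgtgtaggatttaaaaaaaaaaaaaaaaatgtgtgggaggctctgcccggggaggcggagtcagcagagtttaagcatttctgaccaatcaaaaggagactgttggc
Psat1: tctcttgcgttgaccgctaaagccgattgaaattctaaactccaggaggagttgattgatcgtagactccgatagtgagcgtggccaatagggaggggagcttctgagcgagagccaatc
Slc43a1: agggtctccctcCACGTGgcagccgtggga

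The Asns stretch is chr6:7693225-7693344 on the minus strand, and its match begins 23 bases before the RefSeq start. The last 30 bases of it lie in an exon that GENCODE M21 starts further upstream. The Phgdh stretch is chr3:98339970-98340089 and the Psat1 stretch chr19:15925060-15925179, both on the minus strand and both ending at the base before the RefSeq start. GENCODE exons cover 21 bases of the Phgdh stretch and 0 of the Psat1 stretch. The span of Psat1 in the count table begins further upstream, so the Psat1 stretch lies within that span. The Slc43a1 stretch is chr2:84840247-84840276 on the plus strand, within an annotated exon of a longer transcript, and its match begins 64 bases before the RefSeq start. G and C made up 70.0% of the Asns stretch, 44.2% of the Phgdh stretch and 50.8% of the Psat1 stretch.

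In the count table's GRCm38 coordinates the members are spread over 8 chromosomes. Phgdh (ENSMUSG00000053398) spans chr3:98313170-98339990 on the minus strand, and Psat1 (ENSMUSG00000024640) spans chr19:15904678-15947337 on the minus strand. Psph (ENSMUSG00000029446) spans chr5:129765558-129787449 on the minus strand, and Shmt2 (ENSMUSG00000025403) spans chr10:127517123-127522444 on the minus strand. Mthfd2 (ENSMUSG00000005667) spans chr6:83305691-83325908 on the minus strand, and Asns (ENSMUSG00000029752) spans chr6:7675169-7693254 on the minus strand. Slc43a1 (ENSMUSG00000027075) spans chr2:84838850-84863594 on the plus strand, and Slc7a5 (ENSMUSG00000040010) spans chr8:121881150-121907694 on the minus strand. Slc3a2 (ENSMUSG00000010095) spans chr19:8706882-8723369 on the minus strand, and Atf4 (ENSMUSG00000042406) spans chr15:80255184-80257540 on the plus strand. 5 members overlap another annotated gene, so that unstranded reads of the overlap are uncertain: Psph and Cct6a (320390 counts over all libraries) share their first parts on opposite strands, while the partners of Shmt2 (Ndufa4l2), Mthfd2 (Gm43890), Psat1 (Gm3329) and Slc7a5 (Gm20388) had 0 to 507 counts. The pseudogene Phgdh-ps1 had 489 counts, against 328622 for Phgdh.

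Per kilobase of exon, the members differed widely in level. The median over all 39 libraries was 145 CPM per kilobase for Slc3a2 and 135 for Phgdh. It was 55.3 CPM per kilobase for Psat1, 55.2 for Atf4, 43.5 for Shmt2 and 10.7 for Asns. Mthfd2 (5.16), Slc7a5 (3.83), Slc43a1 (3.32) and Psph (2.64 CPM per kilobase) were the low members. All other comparisons are of a gene with itself, in CPM or as a log2 fold.

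Averaged over the 6 stages, 7 members were lower in BAM than in microglia (Phgdh, Psat1, Shmt2, Mthfd2, Slc43a1, Slc7a5 and Atf4), 1 was higher (Asns) and 2 did not pass the test (Psph and Slc3a2). Of all 22061 genes tested in this comparison, 28.2% were called in either direction. The median log2 fold was -0.56 over the 10 members and -0.02 over all genes. Calls were made with edgeR's quasi-likelihood test at an adjusted p under 0.05. For Phgdh, Asns and Slc43a1 the test uses the same libraries in which their fall had been seen.

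Phgdh, which commits carbon to serine, was at like levels in both populations at E10.5 and about 10 times lower in BAM by E16.5. At E10.5 it stood at 839, 724, 663 and 632 CPM in BAM, against 1070, 738, 861 and 926 CPM in microglia, with overlapping ranges. At E11.5 the values were 269.9, 262 and 329 CPM in BAM and 337, 358 and 336 CPM in microglia, and BAM lay just below without overlap. At E12.5 Phgdh was at 128, 146 and 144 CPM in BAM and 323, 384 and 287 CPM in microglia. At E14.5 it was at 57.4, 58.9 and 52.9 CPM in BAM and 367 and 347 CPM in microglia. At E16.5 the BAM libraries held 39.8, 31.7 and 25.2 CPM and the microglia libraries 338, 323 and 372 CPM. The highest BAM library of E16.5 was thus far below the lowest microglia library of any stage. At E18.5 the values were 39.2, 62.2, 53.5 and 90.1 CPM in BAM and 542, 456, 403 and 463 CPM in microglia. In each population the first-named E18.5 library is the one of run R10, and it was the lowest of the BAM libraries and the highest of the microglia libraries.

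The log2 fold of Phgdh, BAM over microglia, was -0.34 ± 0.17 (standard error) at E10.5, adjusted p = 0.276, and -0.28 ± 0.19 at E11.5, adjusted p = 0.47. It was -1.24 ± 0.19 at E12.5 (adjusted p = 1.41e-05), -2.59 ± 0.22 at E14.5 (7.14e-11), -3.38 ± 0.21 at E16.5 (6.41e-14) and -3.04 ± 0.18 at E18.5 (6.39e-15). Phgdh was chosen on these same libraries, so its p-values are no independent support. Leaving out the E18.5 libraries of R10 gave -2.72 ± 0.17 at E18.5, adjusted p = 4.6e-13. Ranked by mean level, all 5 later microglia groups stood above every BAM group after E10.5. The 4 microglia groups from E11.5 to E16.5 averaged 331 to 357 CPM and each overlapped its neighbour in that order.

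Psat1, the second enzyme of the chain, was also lower in BAM without overlap from E11.5 on. At E10.5 it was at 452, 323, 327 and 332 CPM in BAM and 439.7, 328, 372 and 386 CPM in microglia. At E12.5 the values were 168, 187 and 148 CPM in BAM, against 266, 247 and 194 CPM in microglia. At E18.5 they were 62.3, 55.4, 51.0 and 53.4 CPM in BAM and 295, 264, 213 and 238 CPM in microglia. BAM therefore kept declining in mean at every stage, 359, 228, 168, 111, 74.1 and 55.5 CPM from E10.5 to E18.5, and no BAM range overlapped that of the next stage. Microglia stayed between 218 and 294 CPM in mean after E10.5. The populations did not overlap at 5 of 6 stages, all but E10.5.

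The log2 fold of Psat1 was -1.27 ± 0.17 at E14.5 (adjusted p = 7.82e-07), -1.51 ± 0.15 at E16.5 (2.56e-09) and -2.29 ± 0.14 at E18.5 (8.09e-15). At E12.5 it was -0.48 ± 0.15, adjusted p = 0.0405. That call was lost without any 1 of 4 libraries (replicates 1 and 3 of BAM, replicates 1 and 2 of microglia; adjusted p 0.169 to 0.203), with the compared groups alone (0.123), without the low-count filter (0.0853) and with halved counts (0.0567).

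Psph, which releases free serine, showed no such parting. Its mean in BAM was 10.03 ± 3.51 CPM at E18.5 and 17.99 ± 4.84 CPM at E10.5 (SD, n = 4 each). In microglia it was 10.7 ± 0.54 CPM at E18.5 and 18.8 ± 3.29 CPM at E10.5 (SD, n = 4 each). The populations overlapped at 5 of 6 stages, and the log2 fold averaged over stages was -0.08 ± 0.10, adjusted p = 0.702. Reads of its overlap with the chaperonin gene Cct6a cannot be assigned to either gene without strand.

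**Figure D1:**
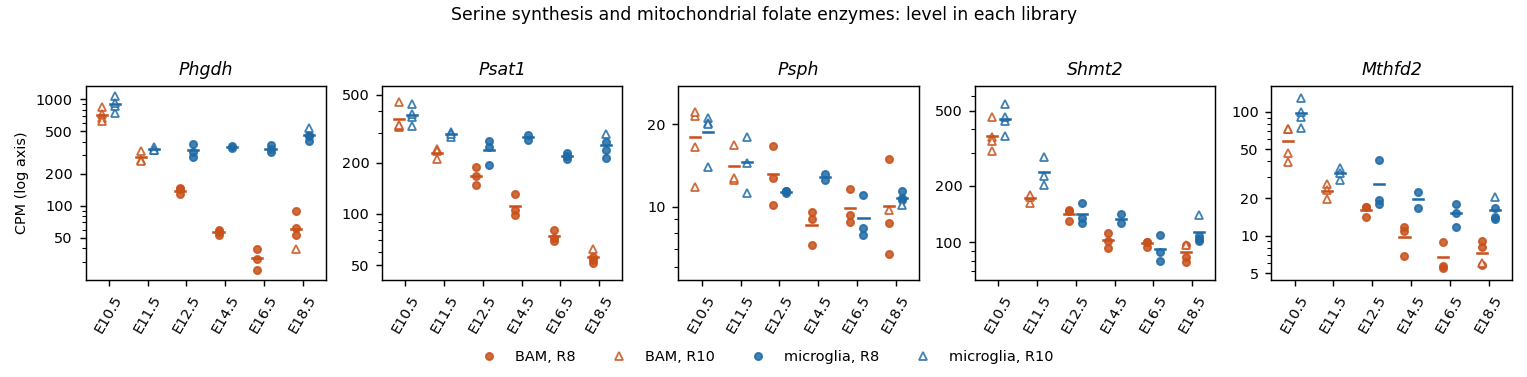
CPM (log axis) of Phgdh, Psat1, Psph, Shmt2 and Mthfd2 in each library by stage, BAM in orange to the left of microglia in blue; filled circles are libraries of run R8, open triangles of run R10, and short lines are group means. Phgdh and Psat1 of BAM lie below microglia without overlap from E11.5 on and Mthfd2 at all 6 stages, while Psph overlaps at 5 stages and Shmt2 at 3.

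Shmt2, which draws on serine in mitochondria, fell in both populations with little difference between them. At E10.5 it was at 464, 362, 305 and 348 CPM in BAM and 544, 370.2, 444 and 464 CPM in microglia. At E11.5 the values were 161, 175 and 178 CPM in BAM and 203, 283 and 226 CPM in microglia. At E18.5 they were 96.3, 78.8, 97.2 and 83.9 CPM in BAM and 139.5, 102, 108 and 105 CPM in microglia. The largest step was thus the first, and BAM lay below microglia without overlap at E11.5, E14.5 and E18.5. Averaged over stages the log2 fold was -0.24 ± 0.07, adjusted p = 0.00636. The E18.5 difference alone, -0.46 ± 0.15 (adjusted p = 0.0285), was lost without the E18.5 libraries of R10 (-0.32, adjusted p = 0.234). It was also lost without any 1 of 3 libraries (replicates 2 and 4 of BAM, replicate 1 of microglia; adjusted p 0.0878 to 0.19).

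Mthfd2, the next mitochondrial enzyme, was the only member whose BAM range lay below that of microglia at all 6 stages. At E10.5 it was at 72.6, 72.3, 39.6 and 46.5 CPM in BAM and 129.7, 90.8, 74.4 and 100.2 CPM in microglia. At E14.5 the values were 11.8, 10.9 and 6.92 CPM in BAM and 16.8 and 22.6 CPM in microglia. At E18.5 they were 5.98, 5.76, 9.15 and 8.15 CPM in BAM and 20.6, 13.7, 14.1 and 16.7 CPM in microglia. The gap between the ranges was narrow at E10.5, where the highest BAM library stood just under the lowest microglia library. The log2 fold averaged -0.88 ± 0.12 over stages (adjusted p = 1.35e-07) and was called at E16.5 (-1.13 ± 0.30, adjusted p = 0.00722) and E18.5 (-1.28 ± 0.26, adjusted p = 0.000348). The E16.5 call was lost without replicate 2 or replicate 3 of BAM (adjusted p 0.0505 and 0.0537).

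Asns, which makes asparagine, went against the other members: it was higher in BAM from E12.5 on, while in both populations its mean was lower at every later stage than at E10.5. At E10.5 it stood at 118, 104, 102 and 98.7 CPM in BAM and 129, 90.6, 109.6 and 98.2 CPM in microglia. At E11.5 the values were 62.4, 60.1 and 58.3 CPM in BAM and 37.0, 40.7 and 38.9 CPM in microglia. A day on, the libraries no longer overlapped, and microglia were the lower ones. At E12.5 Asns was at 43.2, 59.7 and 42.3 CPM in BAM and 19.7, 19.5 and 24.0 CPM in microglia. At E14.5 it was at 42.8, 26.0 and 39.2 CPM in BAM and 11.3 and 13.5 CPM in microglia. At E16.5 the values were 20.5, 24.9 and 26.9 CPM in BAM and 5.84, 7.87 and 7.83 CPM in microglia. The lowest BAM library of E16.5 was still above the highest microglia library of E14.5. At E18.5 Asns was at 29.2, 20.6, 21.6 and 18.8 CPM in BAM and 10.7, 10.2, 5.45 and 9.62 CPM in microglia.

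The log2 fold of Asns was -0.03 ± 0.18 at E10.5 (adjusted p = 1) and 0.61 ± 0.21 at E11.5 (adjusted p = 0.0714). It was 1.22 ± 0.21 at E12.5 (adjusted p = 7.16e-05), 1.61 ± 0.25 at E14.5 (1.55e-05), 1.80 ± 0.22 at E16.5 (1.29e-07) and 1.23 ± 0.19 at E18.5 (5.3e-06). Asns was chosen on these same libraries, so its p-values are no independent support. At E11.5 DESeq2 called it (0.63, adjusted p = 0.0231), as did halved counts (adjusted p = 0.0446).

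Slc43a1, a facilitative carrier of large neutral amino acids, was also lower in BAM without overlap from E11.5 on. At E10.5 it was at 51.3, 32.4, 28.8 and 27.3 CPM in BAM and 37.3, 41.6, 44.8 and 40.6 CPM in microglia. At E12.5 the values were 4.50, 9.79 and 2.47 CPM in BAM and 16.8, 27.8 and 19.9 CPM in microglia. At E18.5 they were 0.536, 0.760, 2.96 and 3.10 CPM in BAM and 22.8, 24.1, 19.1 and 18.47 CPM in microglia. BAM libraries at E14.5, E16.5 and E18.5 all held under 5 CPM, the lowest 0.294 CPM from 7 counts, so their values carry large counting error. Microglia averaged 21.1 to 26.5 CPM at the 5 stages after E10.5, and these groups overlapped each other in the order of means. The log2 fold was -1.92 ± 0.52 at E12.5 (adjusted p = 0.0126), -3.30 ± 0.59 at E14.5 (0.000139), -3.79 ± 0.58 at E16.5 (5.68e-06) and -3.63 ± 0.49 at E18.5 (5.47e-07). Slc43a1 was chosen on these same libraries, so its p-values are no independent support. The E12.5 call was lost without any 1 of 3 libraries (replicates 1 and 3 of BAM, replicate 2 of microglia; adjusted p 0.0737 to 0.111). With the compared groups alone Slc43a1 was also called at E11.5 (-1.15, adjusted p = 0.0328, against 0.194 in the fit of all groups).

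Slc7a5, the light chain of the exchanger, was lower in BAM in the middle of the window. At E10.5 it was at 16.6, 12.97, 29.4 and 14.9 CPM in BAM and 25.1, 29.2, 32.8 and 36.9 CPM in microglia. At E14.5 the values were 6.56, 6.91 and 7.44 CPM in BAM and 26.6 and 24.5 CPM in microglia. At E18.5 they were 5.27, 10.9, 16.2 and 17.9 CPM in BAM and 10.9, 19.6, 14.2 and 15.2 CPM in microglia. The ranges were apart from E11.5 to E16.5 and overlapped at E10.5 and E18.5, and in both populations the E18.5 library of R10 was the lowest. The log2 fold was -1.18 ± 0.30 at E12.5 (adjusted p = 0.0076), -1.81 ± 0.33 at E14.5 (0.000176) and -1.10 ± 0.30 at E16.5 (0.00985). At E18.5 it was -0.36 ± 0.26, adjusted p = 0.432. Without replicate 3 of BAM the E12.5 call was lost (adjusted p = 0.0638), and without replicate 3 of BAM the E16.5 call was lost (adjusted p = 0.0864).

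Its partner Slc3a2 varied little: all 39 libraries lay between 427 and 731 CPM. At E16.5 it was at 632, 657 and 731 CPM in BAM and 520.4, 511 and 567 CPM in microglia, the only stage without overlap. The log2 fold there was 0.39 ± 0.12 (adjusted p = 0.0284), and this call was lost without any 1 of 3 libraries (replicate 3 of BAM, replicates 1 and 2 of microglia; adjusted p 0.112 to 0.189). Atf4 also moved within a narrow band, from 62.3 to 133 CPM over all libraries. It averaged 84.0 ± 15.3 CPM in BAM and 100.2 ± 20.4 CPM in microglia at E18.5 (SD, n = 4 each), and the populations overlapped at 5 of 6 stages. Its log2 fold over all stages was -0.24 ± 0.08, adjusted p = 0.0307. That call was lost without any 1 of 13 libraries, 6 of BAM and 7 of microglia (adjusted p 0.0514 to 0.126): in BAM replicate 3 of E11.5, replicates 1 and 3 of E12.5 and of E14.5 and replicate 2 of E16.5, and in microglia replicates 1 and 2 of E11.5, 2 and 3 of E12.5, 1 and 2 of E14.5 and 1 of E16.5.

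**Figure D2:**
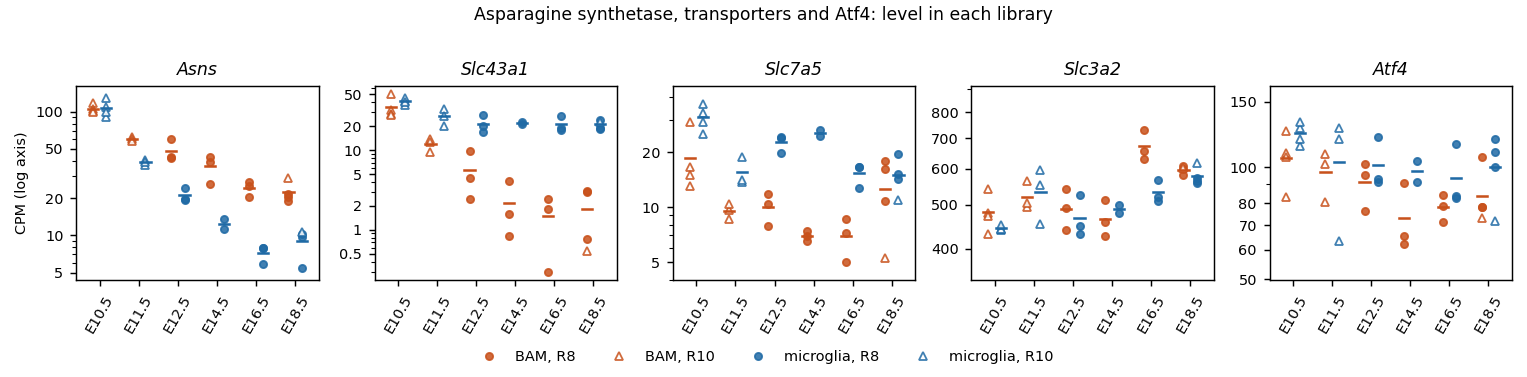
CPM (log axis) of Asns, Slc43a1, Slc7a5, Slc3a2 and Atf4 in each library by stage, BAM in orange to the left of microglia in blue; filled circles are libraries of run R8, open triangles of run R10, and short lines are group means. Asns of BAM lies above microglia and Slc43a1 of BAM below from E11.5 on, while Slc3a2 stays between 427 and 731 CPM.

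Set side by side by stage, the ranges of the populations were apart for 1 of the 10 members at E10.5 (Mthfd2) and for 7 at E11.5, 6 of them lower in BAM and 1 higher. Ranges of so few libraries can part by chance. The share of all genes with ranges apart was not counted, so these counts are a description only. At E10.5 and at E11.5 edgeR called 0 of the 10 members, where 4.48% and 6.66% of all genes were called. At an unadjusted p under 0.05 there were 4 members at E10.5 and 5 at E11.5, and the share of all genes at that threshold was not counted. DESeq2 called 2 members at each: Mthfd2 and Slc7a5 (both lower) at E10.5, Shmt2 (lower) and Asns (higher) at E11.5. Of all genes DESeq2 called 1623 at E10.5 and 2142 at E11.5, against 989 and 1470 in edgeR. With adjacent library numbers as a block, 3 were called at E11.5: Psat1 (adjusted p = 0.0407) and Shmt2 (0.0303) lower and Asns (0.0114) higher. Of all genes 1911 were called with the block at that stage. From E12.5 the calls were 5 at E12.5 (Asns higher and Phgdh, Psat1, Slc43a1 and Slc7a5 lower), against 8.54% of all genes. Asns (higher) and Phgdh, Psat1, Slc43a1 and Slc7a5 (lower) were called again at E14.5, against 7.18% of all genes. At E16.5 there were 7, with Mthfd2 lower and Slc3a2 higher added, against 13.8%. At E18.5 there were 6 (Asns higher and Phgdh, Psat1, Shmt2, Mthfd2 and Slc43a1 lower), against 15.4%. A call at one stage and none at another is not a test of the difference between stages. Phgdh, Asns and Slc43a1, chosen on these libraries, are among the calls at each stage from E12.5 on, so these counts are no independent support. Leaving out 1 library moved the count at E12.5 down to 2 (without replicate 3 of BAM) or 3 (without replicate 1 of BAM or replicate 2 of microglia), and the count at E16.5 down to 4 (without replicate 3 of BAM).

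**Figure D3:**
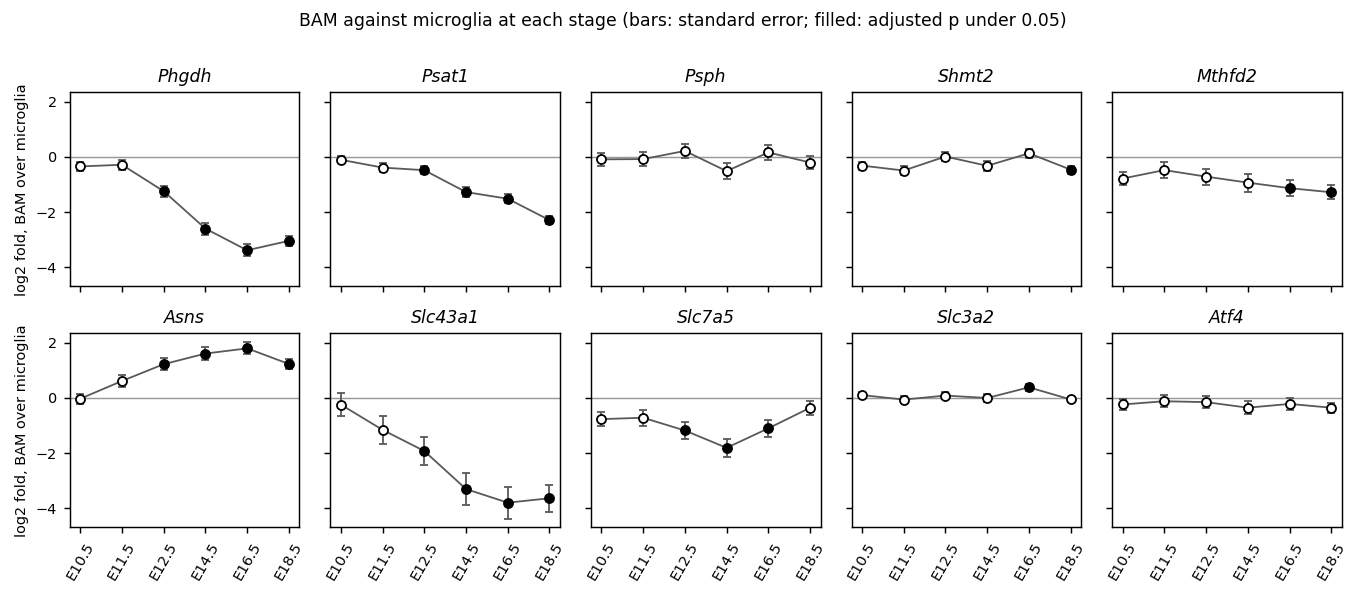
Log2 fold of BAM over microglia at each stage for the 10 members, with standard errors; filled points have an adjusted p under 0.05 in edgeR's quasi-likelihood test over 22061 genes. Phgdh reaches -3.38 and Slc43a1 -3.79 at E16.5, Psat1 reaches -2.29 at E18.5, and Asns lies above 1 from E12.5 on. Phgdh, Asns and Slc43a1 were chosen on these same libraries.

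The stage comparisons ask how the members' levels differ between the ends of the window. They involve 7 tested members, and both comparisons with E10.5 share the E10.5 libraries. Over the whole window, E18.5 against E10.5, BAM had 4 members lower (Psat1, Psph, Shmt2 and Mthfd2) and 1 higher (Slc3a2), while 37.6% of all genes were called. Microglia had 5 lower (Psat1, Psph, Shmt2, Mthfd2 and Slc7a5) and 1 higher (Slc3a2), while 35.3% of all genes were called. The median log2 fold of the 7 members was -0.87 in BAM and -0.75 in microglia, and that of all genes was 0.29 in each.

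Mthfd2 fell by 3.03 ± 0.27 on the log2 scale in BAM (adjusted p = 5.68e-11) and fell by 2.53 ± 0.26 in microglia (1.53e-09). Shmt2 fell by 2.09 ± 0.15 in BAM (adjusted p = 7.45e-13) and fell by 1.94 ± 0.15 in microglia (2.78e-12). Psat1 fell by 2.72 ± 0.14 in BAM (adjusted p = 1.74e-16) and fell by 0.53 ± 0.13 in microglia (0.00149). Psat1 was the 1 of the 7 whose change differed between the populations: the difference of the changes was -2.19 ± 0.19 (adjusted p = 3.58e-10), and 6.63% of all genes were called in that test. For Shmt2 the difference of the changes was -0.15 ± 0.21 (adjusted p = 0.832) and for Mthfd2 -0.50 ± 0.36 (adjusted p = 0.521); a p that misses the threshold does not show equal change. Psph fell by 0.87 ± 0.23 in BAM (adjusted p = 0.00247) and fell by 0.75 ± 0.23 in microglia (0.00874). Slc3a2 was higher at E18.5, with 0.28 ± 0.11 in BAM (adjusted p = 0.0332) and 0.44 ± 0.11 in microglia (0.00112). Atf4 had -0.36 ± 0.18 in BAM (adjusted p = 0.116) and -0.25 ± 0.18 in microglia (0.308).

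As a description, the same comparison gave -3.58 for Phgdh in BAM and -0.89 in microglia. For Slc43a1 it gave -4.29 in BAM and -0.90 in microglia. For Asns it gave -2.25 in BAM and -3.51 in microglia. The first pair of genes thus declined more in BAM and Asns more in microglia, in values that chose them and were not tested. Late in the window Phgdh of microglia stood above its E12.5 level, with a log2 difference of 0.66 ± 0.18 between E18.5 and E12.5, or 0.48 ± 0.16 among R8 libraries alone.

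Because E10.5 lies in R10 and 3 of 4 E18.5 libraries of each population in R8, the comparison was repeated with each kind of E18.5 library. With the 1 E18.5 library of R10, within 1 run and assumed to vary like the other groups, Mthfd2 had -3.34 ± 0.51 in BAM (adjusted p = 2.7e-05) and -2.21 ± 0.47 in microglia (0.00123). Shmt2 had -2.01 ± 0.27 in BAM (adjusted p = 4.99e-06) and -1.65 ± 0.27 in microglia (5e-05). Psat1 had -2.60 ± 0.25 in BAM (adjusted p = 2.35e-08) and -0.31 ± 0.21 in microglia (0.39). The calls of these enzymes therefore held within R10 except that of Psat1 in microglia, and the population difference of Psat1 was -2.28 ± 0.30 there (adjusted p = 3.65e-05). Psph missed the threshold in both populations (-0.95 in BAM, adjusted p = 0.0913, and -0.84 in microglia, 0.148). Slc7a5 was called within R10 in BAM (-1.87 ± 0.40, adjusted p = 0.0011), but had -0.59 ± 0.26 with all libraries (0.0688) and -0.41 ± 0.23 with those of R8 (0.159). In microglia Slc7a5 had -1.002 ± 0.26 with all libraries (adjusted p = 0.00242) and -1.46 ± 0.38 within R10 (0.00799). Slc3a2 was the least firm: in BAM its call was lost with either kind of E18.5 library (0.20, adjusted p = 0.18 for R8 and 0.25, 0.409 for R10). It was also lost there without any 1 of 6 BAM libraries (replicates 1, 2 and 4 of E18.5, replicates 2, 3 and 4 of E10.5; adjusted p 0.0526 to 0.117). In microglia it was lost with the R8 libraries (0.28, adjusted p = 0.0621) and held within R10 (0.53, adjusted p = 0.0421).

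**Figure D4:**
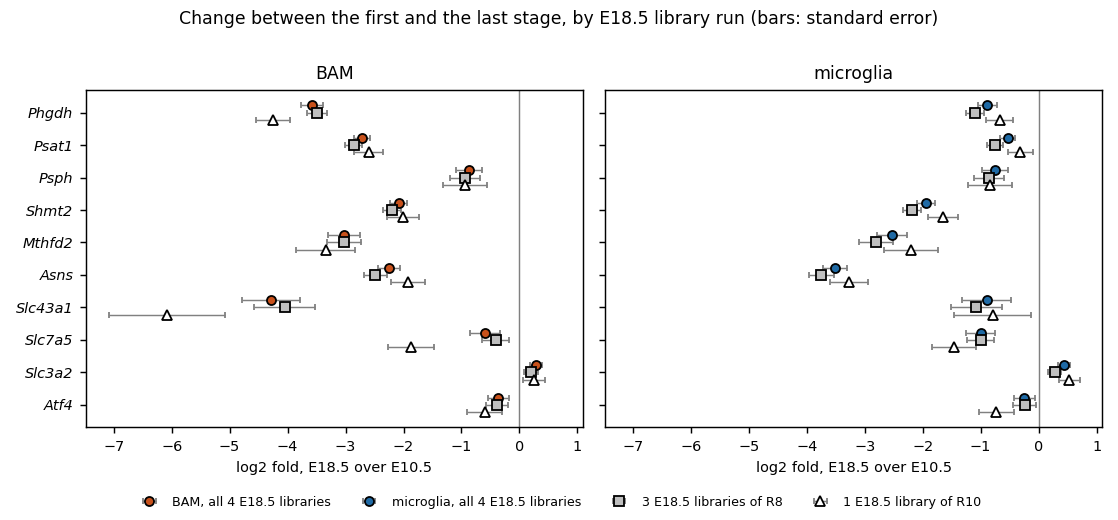
Log2 fold of E18.5 over E10.5 with standard errors for the 10 members, BAM left and microglia right; circles use all 4 E18.5 libraries, grey squares the 3 of run R8 and open triangles the 1 of run R10. Mthfd2 and Shmt2 lie below -1.5 in every version of both panels, Phgdh and Slc43a1 lie lower in BAM, Asns lies lower in microglia, and Slc7a5 of BAM moves most between versions after Slc43a1.

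Much of the decline of the folate enzymes came in the first day, where all libraries are of R10. In E11.5 against E10.5, BAM had 3 of 7 members lower (Psat1, Shmt2 and Mthfd2), against 4.42% of all genes called, and microglia also 3 (Shmt2, Mthfd2 and Slc7a5), against 8.26%. Shmt2 fell by 1.09 ± 0.16 in BAM (adjusted p = 4.73e-05) and fell by 0.91 ± 0.16 in microglia (0.000205). Mthfd2 fell by 1.30 ± 0.28 in BAM (adjusted p = 0.00371) and fell by 1.60 ± 0.28 in microglia (0.000165). Psat1 fell by 0.63 ± 0.14 in BAM (adjusted p = 0.00609, 0.0578 with the compared groups alone) and had -0.35 ± 0.14 in microglia (0.131). Slc7a5 fell by 0.97 ± 0.28 in microglia (adjusted p = 0.0251), a call lost without any 1 of 4 libraries (replicates 1 and 2 of E11.5, replicates 3 and 4 of E10.5; adjusted p 0.0523 to 0.0995). In BAM Slc7a5 had -0.92 ± 0.28 (adjusted p = 0.0558).

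After E12.5, 3 of the 7 tested members were called lower in BAM and none of the 7 in microglia, which is not a test of a difference between them. In E18.5 against E12.5, BAM had 3 lower (Psat1, Shmt2 and Mthfd2), against 10.6% of all genes called. Psat1 fell by 1.54 ± 0.14 (adjusted p = 1.6e-09), Mthfd2 fell by 1.09 ± 0.27 (0.00623) and Shmt2 fell by 0.63 ± 0.16 (0.0065), and all 3 were called with R8 libraries alone. In microglia Mthfd2 had -0.52 ± 0.27 (adjusted p = 0.28), or -0.75 ± 0.29 with R8 libraries alone (0.139). Shmt2 of microglia had -0.15 ± 0.16 (0.664), or -0.36 ± 0.16 with R8 libraries alone (0.221). Psat1 of microglia had 0.26 ± 0.14 (0.303). The difference between the populations in this change was not tested. In microglia edgeR called Slc3a2 only (higher, 0.47 ± 0.12, adjusted p = 0.00758), against 6.74% of all genes, and 1 of the 7 had an unadjusted p under 0.05. DESeq2 also called 1 of the 7, and 2227 of all genes. The Slc3a2 call was lost within R8 (0.35, adjusted p = 0.113) and without replicate 2 of E12.5 (0.0534).

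Genes of mitosis moved with these stage changes. Of 16 mitosis genes, 15 were lower at E18.5 than at E10.5 in BAM and 15 in microglia, with medians of -1.92 and -1.28. Of all genes, 37.6% were called in BAM and 35.3% in microglia. Their summed level was 1210 to 2830 CPM in BAM and 1200 to 2270 CPM in microglia from E12.5 on. At E10.5 and E11.5 it was 3410 to 4740 CPM in BAM and 2800 to 4490 CPM in microglia. In E18.5 against E12.5, 15 of 16 were lower in BAM with a median of -0.97, against 10.6% of all genes, and the median in microglia was -0.10. Between the populations at E18.5, 11 of 16 were lower in BAM with a median of -0.59, against 15.4% of all genes. At E16.5, 5 were higher in BAM and 0 lower, against 13.8%. In the difference of the E18.5 against E10.5 changes 5 were lower, against 6.63%. The part of cell division in the fall of the enzymes or in the population differences was not tested.

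Markers of other cell types also moved with stage. Of 10 mesenchymal and mural markers, 10 were higher at E18.5 than at E10.5 in BAM and 8 in microglia, with median log2 folds of 5.07 and 3.91. Their summed level was 156 to 723 CPM in BAM and 87.6 to 395 CPM in microglia from E12.5 on, against 6.48 to 55.0 CPM in BAM and 4.44 to 38.8 CPM in microglia before. Of 14 neural markers, 8 were higher and 1 lower in BAM, and 10 were higher in microglia. Their sum was 172 to 863 CPM in BAM and 205 to 1020 CPM in microglia from E12.5 on, against 62.7 to 116 CPM in BAM and 103 to 194 CPM in microglia before. Of 10 endothelial markers, 6 were higher in BAM, and in microglia 4 were higher and 1 lower. Of 13 erythroid genes tested, 5 were higher and 4 lower in BAM, and 5 were higher and 3 lower in microglia. Between the populations, averaged over stages, 7 of the 13 were lower in BAM and 0 higher (median log2 fold -0.96), against 28.2% of all genes. Their sum was 160 to 334 CPM in BAM and 620 to 757 CPM in microglia at E12.5, and overlapped at E10.5 and E18.5. Of the 14 neural markers, averaged over stages, 1 was higher and 1 lower in BAM. Their sum was 62.7 to 84.8 CPM in BAM and 167 to 194 CPM in microglia at E11.5. At E14.5 it was 572 to 863 CPM in BAM and 909 to 1020 CPM in microglia, and it overlapped at the other stages. The sum of 9 granulocyte and mast cell markers at E10.5 was 5.41 to 7.61 CPM in BAM and 53.9 to 114 CPM in microglia. In microglia it was 3.09 to 6.47 CPM at E11.5, 1.91 to 63.1 CPM at E12.5 and 1.65 to 2.87 CPM at E18.5. Between the populations at E10.5, 0 of the 7 tested were called. At E18.5 against E10.5, 1 was higher and 2 lower in microglia, and 2 were higher and 1 lower in BAM. The part of these cell types in the stage changes or population differences was not tested.

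The wider pathways were read from 5 lists, beside 37.6% of all genes called in BAM and 35.3% in microglia for E18.5 against E10.5, a median log2 fold of all genes of 0.29 in each, and 28.2% called between the populations. Genes are named for their small p-values, and one given for 1 population may have changed in the other. Cytosolic aminoacyl-tRNA synthetases, which charge tRNAs with amino acids, were the most uniform: 20 of 20 were lower at E18.5 than at E10.5 in BAM, with a median log2 fold of -1.07, and 20 of 20 in microglia, with a median of -0.91. In BAM the smallest p-values were those of Vars (valine, -1.80 ± 0.13, adjusted p = 9.62e-13) and Mars (methionine, -1.60 ± 0.14, adjusted p = 5.97e-11). In microglia they were those of Kars (lysine, -1.64 ± 0.16, adjusted p = 3.25e-10) and Rars (arginine, -1.46 ± 0.15, adjusted p = 6.19e-10). With the 1 E18.5 library of R10 alone, 17 of 20 were called in BAM and 14 in microglia. Between the populations, averaged over stages, 2 of 20 were higher in BAM and 5 lower, with a median log2 fold of -0.07. Examples were Nars (asparagine) at 0.29 ± 0.06 (adjusted p = 5.61e-05) and Vars at -0.31 ± 0.06 (7.6e-05).

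Among 22 neighbours in serine and one-carbon metabolism, 11 were lower and 6 higher at E18.5 than at E10.5 in BAM, and 10 were lower and 3 higher in microglia, with medians of -0.58 and -0.63. Shmt1, the cytosolic counterpart of Shmt2, fell by 2.17 ± 0.20 in BAM (adjusted p = 1.92e-10) and fell by 2.04 ± 0.20 in microglia (7.18e-10). Sfxn1, a mitochondrial serine carrier, fell by 1.497 ± 0.13 in BAM (adjusted p = 4.15e-11) and fell by 1.10 ± 0.13 in microglia (2.27e-08). Mthfd1l, which releases formate in mitochondria, fell by 2.25 ± 0.23 in BAM (adjusted p = 1.56e-09) and fell by 2.21 ± 0.23 in microglia (2.29e-09). The folate recycling enzyme Mthfs was higher at E18.5 in microglia (1.03 ± 0.28, adjusted p = 0.00435) and had 0.49 ± 0.28 in BAM (0.166). Aldh1l1, a folate enzyme that also marks astrocytes, was higher in BAM (2.39 ± 0.46, adjusted p = 8.9e-05) and microglia (1.59 ± 0.46, adjusted p = 0.0061). Neural markers were higher at E18.5 too, as given above, and their part in the Aldh1l1 change was not tested. Within R10, 11 genes of this list were called in BAM (17 with all libraries) and 8 in microglia (13 with all). Between the populations 6 of 22 were higher in BAM and 4 lower, among the lower ones Mthfs (-0.61 ± 0.13, adjusted p = 0.000294) and Sfxn1 (-0.26 ± 0.06, 0.000787).

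Of 19 other amino acid transporters, 9 were lower and 4 higher in BAM than in microglia over the stages. Slc7a6, a light chain that like Slc7a5 pairs with Slc3a2, was lower (-1.55 ± 0.10, adjusted p = 2.9e-15), as was the glutamine carrier Slc38a1 (-0.75 ± 0.07, 2.12e-11). Slc7a2, a cationic amino acid carrier, was higher (1.57 ± 0.31, adjusted p = 0.000117), as was the light chain Slc7a8 by a small margin (0.21 ± 0.06, 0.00598). Over the window, 4 of 19 were higher and 5 lower in BAM, and 9 were higher and 3 lower in microglia, with medians of 0.12 and 0.55. The shares of all genes called were 37.6% in BAM and 35.3% in microglia, with a median of 0.29 in each. The glutamine and serine exchanger Slc1a5 fell by 2.53 ± 0.16 in BAM (adjusted p = 4.85e-14) and fell by 1.82 ± 0.16 in microglia (4.16e-11). In BAM Slc43a3, of the Slc43a1 family, also fell by 1.95 ± 0.18 (adjusted p = 1.75e-10), and it had -0.40 ± 0.18 in microglia (0.0759). The neutral amino acid carrier Slc1a4 was higher in BAM (2.40 ± 0.43, adjusted p = 2.69e-05) and microglia (1.85 ± 0.42, 0.000714), and so was the lysosomal carrier Slc38a9 (0.64 ± 0.15, 0.000757 in BAM and 1.03 ± 0.15, 9.21e-07 in microglia). In microglia the light chains Slc7a7 (1.81 ± 0.11, adjusted p = 4.46e-15) and Slc7a8 (0.96 ± 0.13, 3.91e-07) were higher, against 0.19 ± 0.11 (0.154) and 0.26 ± 0.13 (0.113) in BAM. The aromatic amino acid carrier Slc16a10 was lower in BAM (-0.60 ± 0.14, adjusted p = 0.00105) and microglia (-1.02 ± 0.14, 6.62e-07). Within R10, 5 of 19 were called in BAM (9 with all libraries) and 8 in microglia (12 with all).

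The 20 listed effectors of the integrated stress response did not share 1 direction. This list leaves out Asns, Psat1 and the other members, and the tRNA synthetases, so it does not speak for all targets of Atf4. Of 20, 4 were higher and 4 lower at E18.5 than at E10.5 in BAM, and 7 were higher and 5 lower in microglia, with medians of 0.48 and 0.52. Over all genes 37.6% were called in BAM, near the count of the list there, and 35.3% in microglia, with a median of 0.29 in each. The proline synthesis gene Aldh18a1 fell by 2.27 ± 0.21 in BAM (adjusted p = 1.75e-10) and fell by 1.58 ± 0.21 in microglia (1.93e-07). Sesn2, a leucine-sensing inhibitor of mTORC1, fell by 2.17 ± 0.20 in BAM (adjusted p = 1.37e-10) and fell by 1.35 ± 0.20 in microglia (1.26e-06). Pck2, the mitochondrial phosphoenolpyruvate carboxykinase, was higher in BAM (0.75 ± 0.20, adjusted p = 0.00327) and microglia (1.32 ± 0.20, 3.14e-06), as was the alanine transaminase Gpt2 in BAM (0.55 ± 0.19, 0.0229) and microglia (1.01 ± 0.19, 8.7e-05). The lipoprotein receptor gene Vldlr was also called in BAM, with 231 counts in the 4 E18.5 libraries against 2 in those of E10.5, a ratio of 148 per total count (95% exact interval 40.5 to 1230, counting error only). Between the populations 3 of 20 were higher in BAM and 8 lower. Eif4ebp1, a repressor of translation (0.95 ± 0.10, adjusted p = 7.51e-10), and Gpt2 (0.92 ± 0.09, 1.92e-10) were higher, and the stress factor Atf3 (-2.33 ± 0.25, 1.55e-09) and Aldh18a1 (-0.65 ± 0.09, 8.17e-07) lower. Within R10, 6 of 20 were called in BAM (8 with all libraries) and 5 in microglia (12 with all).

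Among 17 genes of the stress kinases and amino acid sensing, 3 were higher and 3 lower at E18.5 than at E10.5 in BAM, and 6 were higher and 4 lower in microglia, with medians of -0.08 and 0.05. The count in BAM is near the 37.6% of all genes called there, and in microglia 35.3% of all genes were called. Eif2s1, the subunit of eIF2 that the stress kinases phosphorylate, fell by 1.58 ± 0.14 in BAM (adjusted p = 7.82e-11) and fell by 1.47 ± 0.14 in microglia (3.43e-10). Eif2ak4 (GCN2), the kinase that senses uncharged tRNA, fell by 0.47 ± 0.17 in BAM (adjusted p = 0.0244) and had 0.05 ± 0.17 in microglia (0.876). Flcn, a regulator of amino acid signalling at the lysosome, was higher in BAM (1.39 ± 0.12, adjusted p = 5.95e-11) and microglia (0.90 ± 0.12, 3.58e-07). Rragd, a lysosomal GTPase, was higher in BAM (3.46 ± 0.95, adjusted p = 0.00419) and microglia (3.08 ± 0.92, 0.00867). Rptor, a scaffold of mTORC1, was higher in BAM (0.39 ± 0.12, adjusted p = 0.0131) and microglia (1.47 ± 0.13, 2.72e-11), and Sesn1 was lower in BAM (-0.43 ± 0.16, 0.0297) and microglia (-1.21 ± 0.16, 1.7e-07). Between the populations 4 of 17 were higher in BAM, with Sesn1 (1.18 ± 0.07, adjusted p = 1.81e-15) and Flcn (0.65 ± 0.06, 1.22e-11) first. The 5 lower ones were led by Rptor (-0.74 ± 0.06, adjusted p = 6.3e-13) and the arginine sensor Castor1 (-1.44 ± 0.16, 2.05e-09). Within R10, 2 of 17 were called in BAM (6 with all libraries) and 4 in microglia (10 with all).

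**Figure D5:**
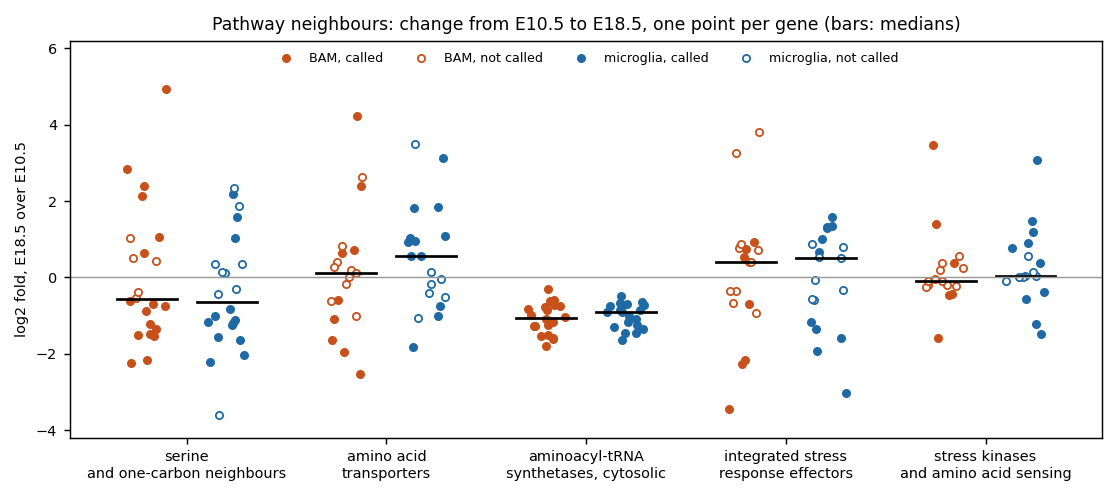
Log2 fold of E18.5 over E10.5 for each gene of the 5 lists, BAM in orange to the left of microglia in blue; filled points have an adjusted p under 0.05, black bars are medians, and Vldlr is left out for its 2 counts at E10.5. All tRNA synthetases lie below 0 in both populations, while the other lists hold genes on both sides of 0.

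The shapes of the profiles were compared as the root-mean-square difference of centred log2 levels over the 12 group means, among 7430 genes of sufficient level. All of these profiles come from the same 39 libraries, and Phgdh, Asns and Slc43a1 were selected on them, so their likeness is a description only. For Slc43a1 the nearest gene was Phgdh, at 0.44, followed by the lactate exporter gene Slc16a3 (0.53), Rab27a (0.72), Tspan32 (0.74) and P2rx1 (0.78). For Phgdh the 5 nearest were Slc16a3 (0.42), Tspan32 (0.48), Map4k1 (0.57), Psat1 (0.71) and Mthfd2 (0.73). For Asns they were the replication licensing gene Cdc6 (0.39), the actin-binding gene Tagln2 (0.39), the glucose transporter gene Slc2a3 (0.42), Lbr (0.47) and the tubulin gene Tubb6 (0.47). No member was among the 5 nearest to Asns, and Asns and Slc43a1 were the most distant pair of members, at 2.05. The standard deviation over the group means was 0.20 for Slc3a2 and 0.22 for Atf4. These were above those of 15.3% and 21.5% of all genes of sufficient level. That set also holds predicted and clone names, which were left out of the 7430.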

How the data were processed

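The authors deposited 1 table of raw counts per gene for 39 libraries, made with STAR and featureCounts on GRCm38 per the submitters' processing notes; versions, annotation and strand setting are not given in the sources used here, and the kit marks no strand. Of 53379 identifiers, 53274 were paired with a symbol in a table of Ensembl names. Numbers of even counts exceed those of odd ones (49977 values of 2 against 21280 values of 1), and the cause was not tested. Level is CPM of the library total.

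edgeR 4.0.16 (R 4.3.3, limma 3.58.1) was used for its quasi-likelihood test with TMM factors, filterByExpr (22061 genes kept) and 1 coefficient for each of 12 groups (27 residual degrees of freedom), with Benjamini-Hochberg adjustment over all genes. Alternatives were RLE factors, no filter, DESeq2 1.42.0, the compared groups alone, adjacent library numbers as a block, either run of E18.5 libraries, halved counts (chosen after seeing the data, as was the E18.5 population comparison without R10) and leaving out each library, where genes tested and trended dispersion were kept. The code was tested on simulated data. Errors are standard errors of log2 folds unless SD is named.

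The members and lists were chosen with earlier results of these data known. Named list genes are up to 2 with the smallest p per direction and comparison. Motifs were searched by exact match. Single values of some genes of the serine and one-carbon list are not reported here.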

Additional observations from a re-analysis of the deposited data

Results flagged for a closer look

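In 40 groups of 4 libraries, 4 had 1 library far from the other 3, against 1 in 20 by chance. Psat1 in BAM at E10.5 was 452 CPM in replicate 1 and 323 to 332 CPM in the others. Psph in microglia at E10.5 was 13.9 CPM in replicate 2 and 20.1 to 21.0 CPM in the others. Shmt2 in microglia at E18.5 was 139.5 CPM in replicate 1, the library of R10, and 102 to 108 CPM in the others. Atf4 in BAM at E18.5 was 106.6 CPM in replicate 3 and 73.0 to 78.4 CPM in the others.

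The change of Psat1 between E10.5 and E18.5 differed between BAM and microglia by -2.19 on the log2 scale in edgeR's test of the difference itself. It was -2.11 without the E18.5 libraries of R10 and -2.28 without those of R8.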

How the results depend on the processing

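Of 860 values of members recomputed under other settings, 812 were counted as the same, 15 lost the call and 21 gained one. Another 12 untested values moved by more than 1 standard error, and 0 were counted as reversed. A value called in neither fit counted as the same whatever its sign, so its direction was not checked. Of 1380 values with 1 library left out, 1324 were counted as the same, 41 lost the call and 10 gained one. Another 4 moved and 1 was counted as reversed, Slc43a1 in microglia, E18.5 against E12.5. It was -0.019 to 0.39 with 1 library left out, the lowest without replicate 1 of E12.5, and 0.14 with all. For BAM against microglia at E10.5 (0 members called) the count was 1 without the filter, 2 with DESeq2, 2 with adjacent library numbers as a replicate block, and 0 to 1 with 1 library left out. At E11.5 (0 called) it was 2 with DESeq2, 1 with the compared groups alone, 3 with the block and 1 with halved counts. Leaving out 1 library gave 2 to 5 at E12.5 and 4 to 7 at E16.5. For microglia, E18.5 against E12.5 (1 called), it was 0 without the E18.5 library of R10 and 0 to 1 with 1 library left out. The causes were not tested. Slc3a2 of BAM, E18.5 against E10.5, also missed the threshold without the filter (adjusted p = 0.162), with the compared groups alone (0.0715) and with halved counts (0.0958). Over all genes, the calls at E10.5 numbered 989, or 1623 with DESeq2, 1278 with the block and 524 with the compared groups alone. At E11.5 they numbered 1470, or 2142 with DESeq2, 1911 with the block and 929 with the compared groups alone. For E11.5 against E10.5 they numbered 976 in BAM (1756 with DESeq2, 358 alone) and 1822 in microglia (1025 alone). For E18.5 against E10.5 they numbered 8295 in BAM, 7788 in microglia and 1463 for the difference. With the E18.5 library of R10 alone, fewer genes were called in each. The number of libraries and the run composition change together there, so their parts cannot be told apart.

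The labels number no replicates across groups. Adjacent library numbers in 19 pairs of BAM and microglia had correlated deviations of 0 to 0.19, 6 of them over 0.1, and were not treated as pairs. Whether they share more than a number is not given in the labels. CPM from TMM-adjusted totals moved 13 of 120 group means by more than 1 SD. Low counts limit Slc43a1 in BAM after E12.5.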
